A study of Homo sapiens with 15 samples.

Results

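The baseline transcriptomes of 2 untreated human cell lines, PC3 and P493-6, were compared. PC3 is labelled a prostate cancer line. P493-6 is labelled as a Burkitt lymphoma line that overexpresses c-MYC. The study tested MYCi975, an inhibitor of MYC, on both lines and turned MYC off in P493-6 with tetracycline. Of its 15 libraries, the 6 controls are used here, 3 of PC3 and 3 of P493-6. Their treatment field gives no drug, and the protocol says that control groups received DMSO, the solvent of MYCi975. Both lines grew in RPMI medium with 10% fetal bovine serum. The labels leave unsaid if the 3 libraries of 1 line are separate cultures. Every p-value therefore reflects library-to-library spread alone, possibly of technical origin.

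Each line stands in its own table of expression values. Every gene in a table has more than 1 CPM (reads of the gene scaled to the same total in every library) in at least 2 of its 6 libraries, the controls and the MYCi975 libraries of that line. Joined on the gene identifier, the tables hold 15509 genes, of 16109 in any table of the study. Both list 11240 genes. A further 2511 are listed for PC3 only and 1758 for P493-6 only. A gene absent from a table is described as not listed. If such a filter alone removed it, its median over the 3 controls lies at or below 1 CPM. This was checked in P493-6, where a second table shares the same controls: of 843 genes that only the second table holds, 0 had more than 1 CPM in 2 or more controls.

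As background, a B cell is defined by transcription factors such as PAX5, EBF1 and SPI1, by the B cell receptor and its signalling kinases, and by antigen presentation on MHC class II. Carcinoma lines such as PC3 grow attached and express keratins, integrins, matrix proteins and receptor tyrosine kinases, and PC3 is known to grow without androgen. MYC pairs with MAX on E-box DNA and drives genes of ribosome assembly, nucleotide synthesis and cell growth. P493-6 is known as a B cell line immortalized with Epstein-Barr virus that carries MYC under a tetracycline-repressible promoter, and PC3 expresses MYC from its own locus.

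The libraries held 13174502 to 15926008 reads in PC3 and 9774101 to 12212555 in P493-6. Pearson's r of log2(CPM + 1) was 0.995 to 0.997 between libraries of 1 line and 0.782 to 0.788 between lines. Replicate libraries differed by more than counting noise, with a chi-square of 2.73 to 6.58 per gene. TMM scaling factors were between 0.989 and 1.03. Some genes far higher in 1 line were still seen at a trace level in the other. Only genes in both tables were examined. Listing already requires reads in each line, so how often such traces occur is not shown. Of 16 genes with a mean of at least 300 CPM in PC3 and under 4.5 CPM in every P493-6 library, the P493-6 level was a median 0.134%, 0.277% and 0.114% of the PC3 level in replicates 1, 2 and 3, and replicate 2 was the highest in 14. Of 5 genes high in P493-6 and as low in PC3, PC3 replicate 1 was the highest in 5, at a median 0.183% against 0.0751% and 0.0878%. The libraries carried a single index, per the labels, and its part in these traces was not tested. The traces bear on the size of the largest differences and on whether such a gene is listed in both tables.

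Of the 11240 genes in both tables, 9535 (84.8%) were called different at an adjusted p below 0.05 by limma on log2(CPM + 1) after TMM scaling, 4801 (42.7%) higher in PC3 and 4734 (42.1%) higher in P493-6. The tables were made separately, and CPM carries no scaling between them. All log2 differences below are PC3 minus P493-6. Since most genes pass this threshold, a size of at least 2-fold is used to describe them. By that measure 2041 genes (18.2%) were higher in PC3 and 1820 (16.2%) higher in P493-6, while 5674 were called with a smaller difference and 1705 were not called. At 16-fold or more, 129 genes were higher in PC3 and 69 in P493-6. The median log2 difference over all tested genes was -0.01 and the median absolute difference 0.69. The groups did not overlap in 85.3% of genes. CPM gives every library the same total, so total RNA per cell was not measured, and fewer cells and less RNA per cell cannot be told apart.

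**Figure D1:**
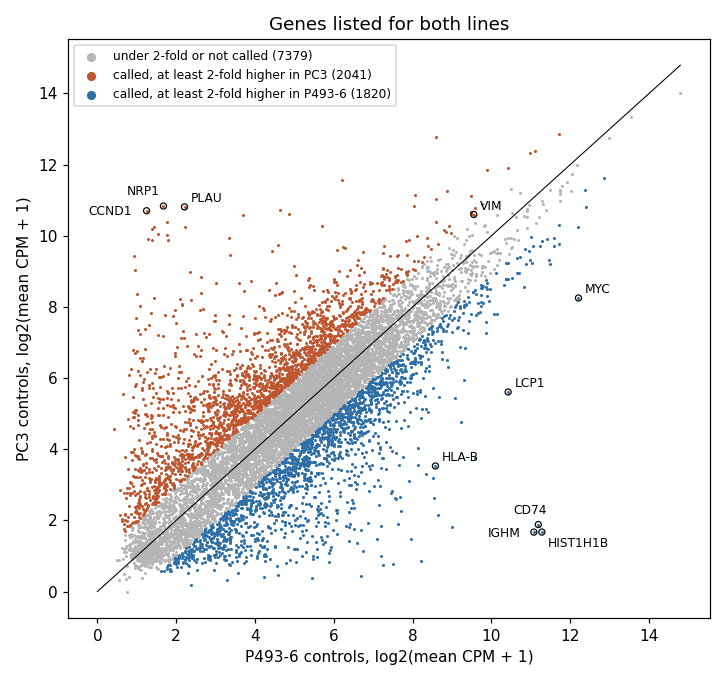
Mean level in the 3 PC3 controls (vertical axis, log2(mean CPM + 1)) against that in the 3 P493-6 controls (horizontal axis, same scale) for the 11240 genes in both tables, 1 point per gene, with the line of equality. The 2041 and 1820 coloured genes were called at 2-fold or more. CCND1, NRP1 and PLAU lie at the upper left, and IGHM, CD74 and HIST1H1B at the lower right.

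Of the genes in both tables, CCND1 had the largest difference towards PC3. It encodes cyclin D1, which drives cells through G1 phase with CDK4 and CDK6 (chr11:69641087-69654474, plus strand). Its level was 1629, 1724 and 1644 CPM in the PC3 libraries and 1.26, 2.05 and 0.818 CPM in P493-6, a log2 difference of 9.51 (SE 0.21), adjusted p = 9.14e-07. NRP1, a coreceptor for semaphorins and VEGF, stood at 1819.5, 1822 and 1838 CPM in PC3 against 1.55, 3.6 and 1.43 in P493-6, a log2 difference of 9.25 (SE 0.29). FOSL1, an AP-1 subunit, followed with 8.93 (SE 0.36), from 1160.3, 1190.0 and 1159 CPM in PC3. The other 7 of the 10 largest were CDCP1 (8.87), the potassium channel KCNMA1 (8.71), the urokinase PLAU (8.65), the collagen chain COL6A2 (8.65), the clock factor ARNTL2 (8.62), the hair keratin KRT81 (8.61), whose reads can be confused with those of KRT86, and the MAP kinase phosphatase DUSP4 (8.58). These genes were picked for size and for groups that do not overlap, so their separation in every library follows from the choice. The P493-6 replicate 2 level was the highest of the 3 in 9 of the 10, the exception being PLAU at 4.36, 4.18 and 2.35 CPM. Without that library the log2 differences ranged from 8.75 (PLAU) to 9.70 (CCND1), against 8.58 to 9.51 with it.

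In P493-6 the largest difference belonged to HIST1H1B, the linker histone H1.5 (chr6:27866849-27867529, minus strand). It stood at 2241, 2533 and 2678 CPM in P493-6 and 4.14, 1.43 and 0.987 CPM in PC3, a log2 difference of -9.71 (SE 0.42), adjusted p = 1.95e-05. IGHM, the constant chain of immunoglobulin M, had 2124, 2146 and 2203 CPM in P493-6 and 3.33, 1.56 and 1.67 in PC3, -9.42 (SE 0.24) on the log2 scale. CD74, the invariant chain of MHC class II, had 2347, 2421 and 2233 and 4.27, 1.75 and 2.05 CPM, with -9.34 (SE 0.29). PC3 replicate 1 was the highest PC3 library for all 3, and without it the differences were -10.12, -9.67 and -9.63. Next came the B cell PI3K adaptor PIK3AP1 (-7.35), the haematopoietic GTPase regulator ARHGDIB (-7.19), the calcium pump ATP2A3 (-6.75), the actin regulators WIPF1 (-6.49) and CORO1A (-6.46), PNMA2 (-6.49) and the zinc finger repressor ZEB2 (-6.25).

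Genes listed for 1 line only widen the contrast. Among those for PC3 only, 1199 of 2511 had a control median of at least 5 CPM and 141 of at least 100 CPM. Among those for P493-6 only, 517 of 1758 reached 5 CPM and 75 reached 100 CPM. A gene is described as on the side of a line where it was called at least 2-fold higher there or was listed for that line only with a control median of at least 5 CPM. Of all 15509 genes, 20.9% were on the PC3 side and 15.1% on the P493-6 side. A gene listed for 1 line only has no tested difference, so its side rests on listing and on its level there. Protein-coding genes made up 78.1% of the 2511 for PC3 only, 50.3% of the 1758 for P493-6 only and 88.8% of those in both tables. At a control median of at least 5 CPM they were 1132 of 1199 and 426 of 517. Entries without a given gene type, such as H3C8 and H3C11, count as not protein-coding. By median CPM, which takes no account of gene length, the 10 at the top for PC3 were LTBP1, S100A6, FN1, AXL, DKK1, ALDH1A3, FZD8, KRT19, PXDN and PKP1. FN1 encodes fibronectin and had 746, 725 and 700.1 CPM in the PC3 libraries. DKK1, a secreted WNT antagonist, had 654, 650.2 and 659.9 CPM, and FZD8, a WNT receptor, 632, 619.5 and 650.3 CPM. ALDH1A3, which makes retinoic acid, had 648, 655 and 650.0 CPM. For P493-6 they were MS4A1, IGJ, H3C8, H3C11, CCND2, SYK, IGKV1-17, LSP1, WDFY4 and HLA-DRA. MS4A1 encodes CD20 and had 897, 883 and 873 CPM in the P493-6 libraries. IGJ, the joining chain of polymeric antibodies, had 759, 779.8 and 739 CPM, and LSP1, a leukocyte actin-binding protein, 387, 415 and 391 CPM. For 94 of the 1199 PC3 genes the second P493-6 table gives control values. The control medians of these genes over the 3 libraries had a midpoint of 0.409 CPM and reached 0.983 CPM at most, although single libraries can be higher. LTBP1 is one of these, at 0.485, 2.46 and 0.614 CPM in P493-6 against 907, 922 and 920.5 in PC3.

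**Figure D2:**
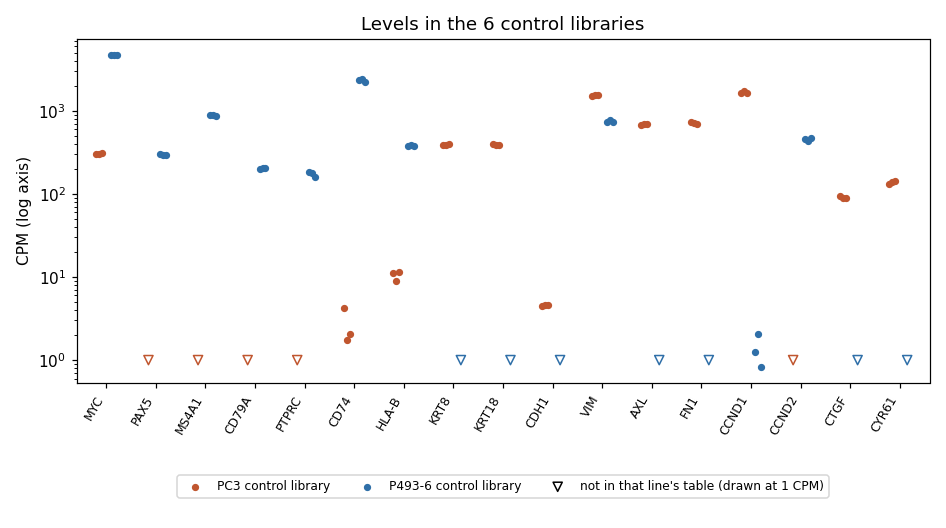
CPM (log axis) in each of the 6 control libraries for 17 genes that define the lines or mark the contrast, with PC3 and P493-6 libraries as separate points. An open triangle at 1 CPM marks a line whose table does not list the gene. MYC lies at 4692 to 4791 CPM in P493-6 and 300.4 to 309 CPM in PC3, and PAX5, MS4A1, CD79A and PTPRC are listed for P493-6 only, KRT8, KRT18, CDH1, AXL, FN1, CTGF and CYR61 for PC3 only.

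MYC, whose protein MYCi975 targets and whose transgene tetracycline represses in P493-6, lies at chr8:127735434-127741434, plus strand. It stood at 301, 300.4 and 309 CPM in the PC3 libraries and 4692, 4701 and 4791 CPM in P493-6. The means were 304 ± 4.96 and 4728 ± 54.8 CPM (SD, n = 3), a log2 difference of -3.93 (SE 0.03), adjusted p = 1.69e-30, or 15.2-fold. The groups were far apart. Its partner MAX went the other way and was higher in PC3, at 115 ± 2.87 against 81.6 ± 2.27 CPM, with a log2 difference of 0.51 (SE 0.046). Of 11 listed members of the MYC network, the repressor partners MXI1 (-2.02) and MNT (-1.12) were higher in P493-6, and MXD1 (1.61) and the paralog MYCL (1.08) higher in PC3. MYCN was in neither table.

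The 58 genes of a MYC target list each differed by less than MYC itself. Of them 46 were called higher in P493-6 and 8 in PC3, against 42.1% and 42.7% of all genes, and 4 were not called. But 14 reached 2-fold in P493-6 and 1 in PC3. The list median was -0.43 against -0.01 over all genes. At 2-fold the P493-6 share of 14 in 58 stands beside a background of 16.2%. The phosphatase DUSP2 differed most in P493-6, with 30.4, 32.1 and 31.8 CPM there and 3.2, 2.73 and 3.11 CPM in PC3 (-2.99, SE 0.11). MAP3K6 differed most in PC3, with 21.5, 22.1 and 24.4 against 2.04, 1.72 and 1.02 CPM (3.23, SE 0.14). The ribosome assembly factors NOLC1 (-1.09) and PES1 (-1.04), the helicase subunit MCM4 (-1.42) and the coactivator PPRC1 (-1.66) were higher in P493-6 by over 2-fold. NPM1, the nucleolar chaperone, was at 2339, 2336 and 2310.1 CPM in PC3 and 3376, 3456 and 3349 CPM in P493-6 (-0.52, SE 0.027). SRM, the polyamine enzyme spermidine synthase, stood at 358, 333 and 348 CPM in PC3 and 385, 403 and 375 CPM in P493-6 (-0.14, SE 0.036). Of 39 tested ribosome biogenesis factors 26 were called higher in P493-6 and 11 in PC3, against 42.1% and 42.7% of all genes. At 2-fold 9 were higher in P493-6, against 16.2% of all. Their median was -0.47, with NOP58 (-2.37), NOL6 (-2.06) and fibrillarin FBL (-1.53) at the far end.

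The E-box bound by MYC and MAX, CACGTG, reads the same on both strands. It was found in 20 of the 48 MYC target promoters in the RefSeq table (250 bases before to 50 after the start, GRCh38.p14), against 7.43% of all 27305 promoters and 11.0% of those of tested genes under 2-fold or not called. The SRM promoter is printed, 5′ to 3′ on the strand of the gene with the E-box in capitals (chr1:11059969-11060268, minus strand), since SRM holds such an E-box and yet differed between the lines by a log2 value of only -0.14. Other lists varied in this motif, from 0 of 18 B cell transcription factor promoters to 5 of 11 HOX promoters. A match says that the letters are there and nothing of binding.
SRM: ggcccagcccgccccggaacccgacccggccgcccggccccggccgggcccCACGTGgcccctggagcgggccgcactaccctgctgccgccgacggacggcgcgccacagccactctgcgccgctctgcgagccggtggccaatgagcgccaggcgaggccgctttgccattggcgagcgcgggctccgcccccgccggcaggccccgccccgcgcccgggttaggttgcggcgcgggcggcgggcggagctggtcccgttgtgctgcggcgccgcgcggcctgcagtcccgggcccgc

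B cell transcription factors were a P493-6 feature. Of 22 factors, 20 were on the P493-6 side, against 15.1% of all listed genes. Of the 10 tested, 9 reached 2-fold, against 16.2% of all tested genes, and the median was -1.85. PAX5, which commits cells to the B lineage, had 303, 297 and 295 CPM in the P493-6 libraries and was not listed for PC3. The same held for the Ikaros family members IKZF3, at 262, 253 and 219 CPM, and IKZF1, at 157, 158 and 154 CPM, for IRF8 at 158, 157 and 151 CPM, and for IRF4 at 138, 126 and 137 CPM. Of those listed for both, BCL11A differed most, with 1.82, 2.14 and 2.28 CPM in PC3 and 66.4, 66.8 and 67.3 CPM in P493-6 (-4.44, SE 0.10). Octamer factor POU2F2 (-3.67), RUNX3 (-3.67), FOXO1 (-2.41) and ID3 (-2.03) followed. BACH2 was under 2-fold, at -0.71. The exception was BCL6, the germinal centre repressor, which was listed for PC3 only, at 63.7, 66.6 and 66.8 CPM.

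B cell receptor and surface genes put 22 of 25 listed members on the P493-6 side and 0 on the PC3 side. The shares of all listed genes were 15.1% and 20.9%. The kinases of the receptor pathway were among them. SYK had 423, 436 and 411 CPM and BTK 167, 170.3 and 150.5 CPM in P493-6, and neither was listed for PC3. LYN had 10.9, 10.8 and 10.6 CPM in PC3 and 197, 200.2 and 204 CPM in P493-6 (-4.07, SE 0.056). PLCG2, the phospholipase downstream of BTK, had 4.9, 5.45 and 5.39 and 374, 374 and 366 CPM (-5.87, SE 0.057). The receptor's signalling chains CD79A, at 199.7, 204 and 208 CPM, and CD79B, at 84.0, 91.6 and 73.5 CPM, were listed for P493-6 only. CD40 was 1 of the 4 tested members beyond 2-fold (-2.90). The surface proteins CD24 (0.26) and CD81 (-0.37) were under 2-fold. All 8 immunoglobulin constant and joining chain genes with a listing were on the P493-6 side, with both light chain types, kappa IGKC at 319.7, 307 and 306 CPM and lambda IGLC2 at 33.5, 33.4 and 32.3 CPM, and with IGHD at 52.5, 51.3 and 55.1 CPM. Immunoglobulin genes share sequence and the span listed for IGHM covers many of its neighbours, so how reads divide among them is uncertain.

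Genes used by leukocytes in general behaved alike, with 26 of 30 on the P493-6 side and 0 on the PC3 side. The shares of all listed genes were 15.1% and 20.9%. The median was -4.78 over the 8 tested. LAPTM5 had 249.5, 238 and 243 CPM, DOCK2 289, 268 and 263 CPM and the phosphatase PTPRC (CD45) 186, 179 and 162 CPM in P493-6, and all 3 were missing from the PC3 list. LCP1, the leukocyte plastin that bundles actin, was measured in both at 49.4, 47.0 and 47.0 CPM in PC3 and 1384, 1376 and 1356 CPM in P493-6 (-4.79, SE 0.035). HCLS1 (-4.78), the phosphatase PTPN6 (-4.88) and the mitochondrial carrier UCP2 (-3.56) were likewise higher in P493-6. RAC2, the Rac GTPase of blood cells, was under 2-fold, with 57.9, 63.3 and 60.7 CPM in PC3 and 80.5, 80.7 and 78.7 CPM in P493-6 (-0.37, SE 0.05).

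The purine-rich motif GGAAGT, read by PU.1 and related ETS factors and searched on both strands, was found in 11 of 16 promoters of the B cell receptor and surface list and in 14 of 23 of the leukocyte-wide list, against 23.2% of all promoters in the table and 30.8% of those of tested genes under 2-fold or not called. Other B cell lists had fewer, with 6 of 18 transcription factor, 4 of 14 class II and 0 of 7 germinal centre promoters. Lists of general function reached 8 of 17 for NF-kB and 13 of 32 for ribosome biogenesis. SPI1, which encodes PU.1, had 57.8, 65.4 and 66.4 CPM in P493-6 and was not listed for PC3. A pair of these promoters is printed because their genes stand for the 2 lists, with the motif or its reverse complement in capitals, CD79A at chr19:41877029-41877328, plus strand and LCP1 at chr13:46182128-46182427, minus strand. CD79A holds it 1 time and LCP1 2 times.
CD79A: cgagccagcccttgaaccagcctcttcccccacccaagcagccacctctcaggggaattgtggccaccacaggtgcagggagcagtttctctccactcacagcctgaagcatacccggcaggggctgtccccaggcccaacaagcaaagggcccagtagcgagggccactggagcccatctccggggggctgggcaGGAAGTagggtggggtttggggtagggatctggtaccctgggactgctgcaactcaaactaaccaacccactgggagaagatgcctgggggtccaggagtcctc
LCP1: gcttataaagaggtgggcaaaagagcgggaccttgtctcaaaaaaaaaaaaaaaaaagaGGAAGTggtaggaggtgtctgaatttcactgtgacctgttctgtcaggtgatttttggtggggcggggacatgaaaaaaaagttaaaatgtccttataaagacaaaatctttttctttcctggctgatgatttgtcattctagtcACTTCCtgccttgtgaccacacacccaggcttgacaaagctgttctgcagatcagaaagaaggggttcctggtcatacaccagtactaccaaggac

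MHC class II presentation genes were found mainly in P493-6, with 14 of 16 members on that side and 0 on the PC3 side. The shares of all listed genes were 15.1% and 20.9%. The median was -2.25 over the 4 tested. CIITA, the coactivator that switches these genes on, had 91.1, 85.3 and 82.9 CPM in P493-6 and was not listed for PC3. Peptide-binding chains listed for P493-6 only included HLA-DRA at 357, 368 and 376 CPM, HLA-DPA1 at 225, 235 and 240.4 CPM and HLA-DPB1 at 142, 144 and 148 CPM. The RFX subunits that bind these promoters were seen in both lines. RFX5 had 23.3, 21.7 and 20.3 CPM in PC3 and 92.6, 82.0 and 86.1 CPM in P493-6 (-1.92, SE 0.063), RFXAP differed by -2.58 (SE 0.15), and RFXANK by -0.60 (SE 0.083). HLA genes vary in sequence between people and resemble each other, so reads from alleles unlike the reference could be miscounted.

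The inverted CCAAT box ATTGG is read by NF-Y next to the RFX sites of these genes. It was found in 11 of 14 class II list promoters in the table, against 35.7% of all promoters. Among tested genes under 2-fold or not called the share was 38.9%. Other lists ranged widely, with 20 of 26 mitosis, 9 of 11 HOX and 2 of 17 EBV-activated B cell promoters. A high share is thus not particular to class II genes. CD74 (chr5:150412861-150413160, minus strand) and HLA-DQA1 (chr6:32637156-32637455, plus strand) are printed with ATTGG or its reverse complement in capitals, since CD74 carries the largest difference of the list and HLA-DQA1 shows a classical chain. CD74 holds 1 match and HLA-DQA1 2.
CD74: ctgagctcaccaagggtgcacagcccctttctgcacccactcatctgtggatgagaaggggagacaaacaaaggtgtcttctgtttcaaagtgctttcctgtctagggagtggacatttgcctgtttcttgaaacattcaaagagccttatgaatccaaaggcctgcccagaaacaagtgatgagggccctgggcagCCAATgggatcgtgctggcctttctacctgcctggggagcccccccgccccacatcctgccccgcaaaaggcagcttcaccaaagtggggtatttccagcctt
HLA-DQA1: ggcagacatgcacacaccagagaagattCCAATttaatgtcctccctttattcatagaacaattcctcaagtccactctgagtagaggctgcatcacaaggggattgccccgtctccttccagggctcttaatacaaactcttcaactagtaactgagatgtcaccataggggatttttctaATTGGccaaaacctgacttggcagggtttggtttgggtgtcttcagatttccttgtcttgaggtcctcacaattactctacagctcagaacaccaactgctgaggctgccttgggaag

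More of the MHC class I presentation genes stood on the P493-6 side than on the PC3 side. HLA-B had 11.3, 8.96 and 11.4 CPM in PC3 and 377, 384 and 382 CPM in P493-6 (-5.03, SE 0.068), and HLA-C had 27.1, 24.9 and 26.6 and 567, 626 and 605 CPM (-4.44, SE 0.048). The light chain B2M was -1.63 (SE 0.034) on the log2 scale. Immunoproteasome subunits followed HLA-B and HLA-C, with PSMB10 at -3.23, PSMB8 at -2.96 and PSMB9 listed for P493-6 only at 28.1, 26.3 and 29.5 CPM. The peptide transporter TAP1 was at -1.72 and the class I transactivator NLRC5 was listed for P493-6 only, at 77.1, 66.2 and 67.4 CPM. Of 19 listed members 10 were on the P493-6 side and 1, the chaperone calreticulin CALR, on the PC3 side (1.51). The shares of all listed genes were 15.1% and 20.9%.

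**Figure D3:**
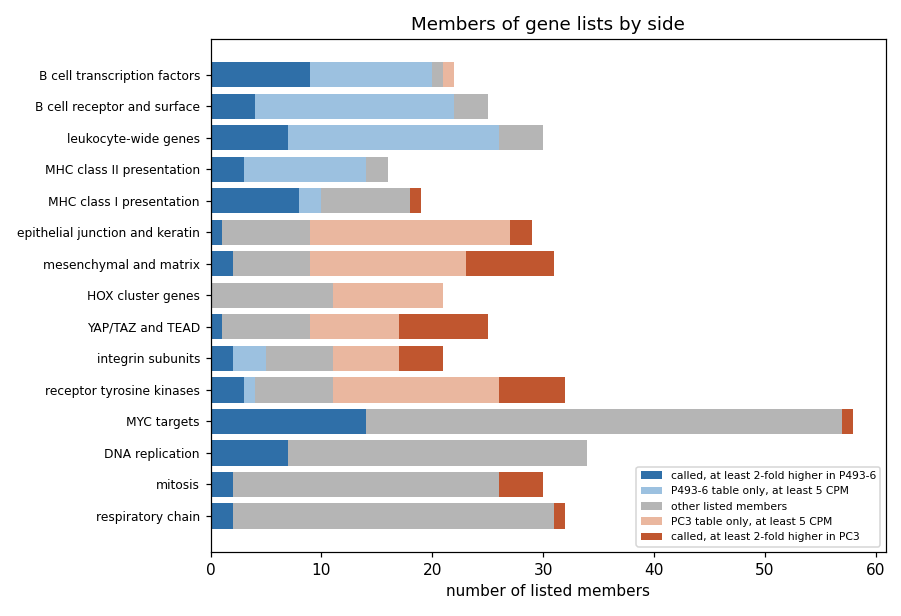
Number of listed members of 15 gene lists by side. Dark blue and dark red bars are members called and at least 2-fold higher in P493-6 or PC3, light bars are members listed for 1 line only with a control median of at least 5 CPM, and grey bars are the rest. B cell, leukocyte and MHC class II bars are almost wholly blue, the epithelial, mesenchymal and YAP/TAZ bars mostly red, and the respiratory chain bar grey but for 3 of 32.

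The Burkitt label of P493-6 was checked against germinal centre markers, which Burkitt lymphoma is known to express. BCL6 was not listed for P493-6, SERPINA9 and RGS13 were in neither table, and LMO2 was at 1.26, 0.819 and 1.53 CPM. MME, which encodes CD10, was at 4.85, 5.73 and 4.81 CPM against 2.32, 2.92 and 2.73 CPM in PC3, and MYBL1 at 1.55, 0.983 and 0.614 CPM against 29.9, 30.1 and 31.0 CPM in PC3. CD38 at 70.3, 74.0 and 69.6 CPM and TCL1A at 190.0, 193 and 198 CPM were present. Of 12 such markers, 10 were listed, 4 were on the P493-6 side and 3 on the PC3 side. Of the markers of B cells activated by Epstein-Barr virus, 10 of 21 listed were on the P493-6 side and 1 on the PC3 side. Beside both lists, 15.1% of all listed genes were on the P493-6 side and 20.9% on the PC3 side. The chemokine CCL22 had 187, 183 and 177 CPM, TNFRSF8 (CD30) 83.4, 88.9 and 84.2 CPM, FCER2 (CD23) 79.4, 88.1 and 85.1 CPM and CD86 62.9, 66.8 and 63.2 CPM, all for P493-6 only. BCL2A1 (1.42) was the member on the PC3 side. Of the 7 tested, 5 were called higher in PC3, the others being CD58 (0.79), CD83 (0.73), CFLAR (0.57) and ICAM1 (0.56) at under 2-fold, and RELB was called higher in P493-6 (-0.93). CR2, the receptor for the virus, was in neither table.

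PC3 showed keratins and junction genes with gaps. Of 29 listed members of the epithelial list 20 were on the PC3 side, against 20.9% of all listed genes. Of the 20, 18 were there through listing for PC3 only. KRT8, a simple epithelial keratin, had 385, 387 and 398 CPM in PC3 and its partner KRT18 400.5, 385 and 388 CPM. KRT19 had 641, 617 and 623 CPM in PC3 and, from the second P493-6 table, 0.388, 1.23 and 0.409 CPM in P493-6. KRT7 was 6.77 (SE 0.12) on the log2 scale. The basement membrane laminin chains LAMA3, at 224, 242 and 237 CPM, and LAMB3, at 217, 227 and 222 CPM, and the tight junction scaffold TJP1, at 209.8, 209 and 206 CPM, were listed for PC3 only. E-cadherin CDH1 was low, at 4.46, 4.61 and 4.63 CPM. GRHL2, OVOL1, ESRP1, RAB25 and CLDN7, regulators or parts of tight epithelia, were in neither table, and the basal keratins KRT5 and KRT14 were absent as well. The protease ST14 was the 1 member higher in P493-6 (-3.40), and plakoglobin JUP was not called, at 57.9, 58.1 and 59.8 CPM in PC3 and 56.2, 59.4 and 66.6 CPM in P493-6.

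Mesenchymal and matrix genes were broadly higher in PC3, with 22 of 31 listed on its side and 2 on the P493-6 side. The shares of all listed genes were 20.9% and 15.1%. The median was 1.07 over the 13 tested. COL6A1 had 1202, 1222 and 1217 CPM in PC3 and 3.1, 4.01 and 3.79 CPM in P493-6 (8.06, SE 0.063), and the membrane protease MMP14 had 109, 112 and 104 and 1.26, 1.06 and 0.716 CPM (5.79, SE 0.10). N-cadherin CDH2, at 112, 106 and 115 CPM, and the EMT factors SNAI2, at 61.0, 67.8 and 66.0 CPM, and TWIST1, at 24.2, 28.3 and 28.5 CPM, were listed for PC3 only. Vimentin VIM was present in both lines, 1530.5, 1552 and 1561 CPM in PC3 and 733, 775 and 741 CPM in P493-6 (1.07, SE 0.031). ZEB1 was near equal (0.17), and ZEB2 and S100A4 (-3.38) were at least 2-fold higher in P493-6. SNAI1 was called higher in P493-6 by under 2-fold (-0.81), and TAGLN was listed for P493-6 only, under 5 CPM. ZEB2 stood at 101, 102 and 103 CPM there and 0.377, 0.195 and 0.455 CPM in PC3.

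YAP1 and its TEAD partners act in attached cells to switch on growth and matrix genes. Their list put 16 of 25 members on the PC3 side and 1 on the P493-6 side, with a median of 1.16 over 14 tested. The shares of all listed genes were 20.9% and 15.1%. YAP1 had 208, 208 and 204 CPM in PC3 and was not listed for P493-6. WWTR1, which encodes TAZ, had 355, 357 and 354 CPM in PC3 and 19.97, 19.2 and 19.3 CPM in P493-6 (4.15, SE 0.045). Among targets, the secreted proteins CYR61, at 134, 139 and 143 CPM, and CTGF, at 95.1, 88.5 and 89.9 CPM, were for PC3 only, while AJUBA (5.21), AMOTL2 (4.79) and MYOF (4.19) were measured in both. TEAD4 was higher in P493-6 by under 2-fold (-0.73). The TEAD motif GGAATG, on either strand, was found in 7 of 19 promoters of this list, against 14.1% of all promoters and 9.97% of those of tested genes under 2-fold or not called. Other lists varied, with 3 of 10 MYC network, 3 of 11 HOX and 0 of 16 B cell receptor and surface promoters. The CTGF promoter, listed by RefSeq as CCN2 (chr6:131951323-131951622, minus strand), holds it 3 times and is printed for that reason.
CCN2: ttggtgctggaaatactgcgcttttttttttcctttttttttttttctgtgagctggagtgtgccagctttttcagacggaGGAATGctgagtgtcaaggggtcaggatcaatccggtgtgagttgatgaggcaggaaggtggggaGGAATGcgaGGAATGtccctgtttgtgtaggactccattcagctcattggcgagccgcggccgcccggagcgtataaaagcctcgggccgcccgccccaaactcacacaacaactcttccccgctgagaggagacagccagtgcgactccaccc

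Adhesion receptors differed in kind. Of 21 listed integrin subunits 10 were on the PC3 side and 5 on the P493-6 side, against 20.9% and 15.1% of all listed genes. ITGB1, the beta chain shared by most matrix receptors, had 3004, 3055 and 3028 CPM in PC3 and 74.5, 74.8 and 69.5 CPM in P493-6 (5.38, SE 0.033). ITGA3 had 935, 928 and 941 and 2.52, 2.7 and 2.15 CPM (8.11, SE 0.058). ITGB4, at 409, 414 and 399.9 CPM, ITGA2, at 311, 316 and 317 CPM, and ITGA6, at 303, 309 and 288 CPM, were listed for PC3 only. In P493-6 the homing receptor chains ITGA4, at 195, 195 and 180.0 CPM against 4.9, 6.04 and 4.33 in PC3 (-4.96, SE 0.082), and ITGB7, at 103, 106 and 105 CPM and for this line only, were higher, with ITGB2 (-2.18), ITGAL at 9.11, 8.68 and 7.26 CPM and ITGAM at 5.43, 3.52 and 5.22 CPM, both ITGAL and ITGAM for this line only.

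Receptor tyrosine kinases were mostly a PC3 feature. Of 32 listed, 21 were on its side and 4 on the P493-6 side, against 20.9% and 15.1% of all listed genes. AXL had 673, 699.6 and 702 CPM in PC3 and, from the second P493-6 table, 0.388, 1.8 and 0.614 CPM in P493-6. MET, the HGF receptor, had 486, 482 and 498 CPM, KDR 166, 161 and 161 CPM and EGFR 56.7, 68.7 and 66.0 CPM in PC3, and none was listed for P493-6. EPHA2 was 6.26 (SE 0.059) and EPHB4 5.30 (SE 0.078) on the log2 scale. The 4 on the P493-6 side were IGF1R, the receptor for insulin-like growth factors, with 31.0, 33.8 and 29.7 CPM in PC3 and 146, 139 and 135 CPM in P493-6 (-2.09, SE 0.054), the insulin receptor INSR (-1.53, SE 0.044), FGFR1 (-1.28) and PDGFRB, for P493-6 only at 9.69, 7.7 and 9.21 CPM. ERBB2 (-0.88), EPHB2 (-0.97) and ROR1 (-0.68) were called higher in P493-6 by under 2-fold. Ligands of EGFR were listed for PC3 only, among them AREG at 83.4, 90.6 and 93.6 CPM, TGFA at 51.7, 50.6 and 53.6 CPM and HBEGF at 40.3, 37.2 and 42.1 CPM. Of 33 cytokines and chemokines listed, 13 were on the PC3 side and 4 on the P493-6 side, beside the same 20.9% and 15.1%. LIF had 67.8, 72.2 and 71.4 CPM and CXCL1 34.3, 33.9 and 32.0 CPM in PC3.

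The prostate label of PC3 was checked against prostate luminal genes. KLK2, KLK3, KLK4, FOLH1, ACPP and MSMB were in neither table. FOXA1, at 234, 218 and 228 CPM, HOXB13, at 169, 155 and 154 CPM, SPDEF, at 28.6, 27.6 and 23.8 CPM, and TMPRSS2, at 22.8, 24.6 and 20.3 CPM, were listed for PC3 only. FKBP5 was higher in P493-6 (-1.95, SE 0.043). Prostate transcription factors were thus present and the secreted kallikreins among these genes were not listed. Of the neuroendocrine markers, CHGA, SYP and INSM1 were in neither table, and FOXA2 was listed for PC3 at 99.5, 101 and 101 CPM. HOX cluster genes other than HOXB13 were listed for PC3 in 21 of 38 cases and for P493-6 in 0. Of the 21, 10 had a median of at least 5 CPM and so were on the PC3 side, against 20.9% of all listed genes. They were led by the posterior HOXA13 at 55.1, 62.6 and 58.8 CPM, HOXA9 at 46.7, 44.2 and 45.2 CPM and HOXA11 at 29.6, 31.7 and 32.5 CPM.

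Markers of other cell types were near absent. Of 19 genes of T cells, myeloid cells, fibroblasts, endothelium and liver, 12 were in neither table. For P493-6 only, the T cell gene CD3E was at 5.33, 3.6 and 4.6 CPM, the myeloid genes LYZ at 4.56, 4.91 and 5.42 CPM and MS4A7 at 2.71, 2.54 and 2.56 CPM, and ITGAM and PDGFRB as given above. PECAM1, found on endothelium and on leukocytes, was higher in P493-6 (-1.35, SE 0.16), and the collagen gene COL3A1 was for PC3 only at 2.01, 2.08 and 2.5 CPM. The defining genes CD3D, CD2, CD14, CSF1R, VWF, CDH5, DCN and ALB were in neither table.

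Pairs of related genes were set out with 1 member placed as the leukocyte form and 1 as the broad form. The pairs were picked by hand, so counts over them describe these pairs alone. The placing was not checked against other cell types, and some members of either form may be misplaced. ZAP70 and BMX, placed as broad, were in neither table. Of 36 pairs, 15 were split, with the leukocyte form on the P493-6 side and the broad form on the PC3 side. In 0 pairs was the split the other way. A further 4 had both on the P493-6 side, 1 had both on the PC3 side, and 16 had 1 or no member on a side. The broad forms were on the PC3 side in 18 pairs and on the P493-6 side in 4, the leukocyte forms in 2 and 30. Of all listed genes, 20.9% were on the PC3 side and 15.1% on the P493-6 side. The D cyclins are the widest, CCND1 for PC3 and CCND2 for P493-6 only, at 459, 437 and 478 CPM. Several of the others bind or shape actin. The leukocyte plastin LCP1 faced PLS3, listed for PC3 only at 324, 334 and 329 CPM. HCLS1 (-4.78) faced cortactin CTTN at 235, 246 and 239 CPM in PC3 and 4.65, 5.24 and 5.22 CPM in P493-6 (5.34, SE 0.066). CYFIP2 (-5.29, SE 0.059) faced CYFIP1 (5.85, SE 0.072), and FERMT3 faced FERMT2, each in 1 table only. Among kinases, LYN (-4.07) faced SRC (4.47, SE 0.063). Among signal enzymes, PLCG2 faced PLCG1 (2.09, SE 0.051). Exceptions were IKZF1 and IKZF2, VAV1 and VAV2, INPP5D and INPPL1, and POU2F2 and POU2F1, with both forms on the P493-6 side. PFKFB2 (4.28) and BCL2A1 went with PC3 although placed as leukocyte forms. SLC2A1, the common glucose transporter, was not called (0.04).

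Of 20 tested genes of the G1 phase of the cell cycle 7 were at least 2-fold higher in PC3 and 5 in P493-6, against 18.2% and 16.2% of all tested genes. CDKN2A, an inhibitor of CDK4 and CDK6, had 107, 97.0 and 97.1 CPM in PC3 and 9.4, 9.42 and 9.92 CPM in P493-6 (3.29, SE 0.07), and its neighbour CDKN2B was listed for PC3 only at 92.7, 96.7 and 99.7 CPM. CDKN1B, which encodes p27, was 2.56 (SE 0.14), and CDKN2C 2.64 (SE 0.15). On the P493-6 side stood E2F2, with 6.84, 8.11 and 6.15 CPM in PC3 and 85.3, 82.3 and 82.2 CPM in P493-6 (-3.37, SE 0.084), the CDK inhibitor CDKN1A (-2.54, SE 0.11) and RB1 (-1.92, SE 0.042). CDK6 and CCND3 were not called. In the DNA replication list 25 of 34 were called higher in P493-6, 7 in PC3 and 2 not, against 42.1% and 42.7% of all genes, and the median was -0.52. At 2-fold 7 of the 34 were higher in P493-6, a share near the 16.2% of all genes, and 0 in PC3. LIG1 (-1.67), POLD2 (-1.31) and CDC6 (-1.28) differed most. In the mitosis list of 30, the calls were on both sides, with 16 called higher in PC3, 11 in P493-6 and a median of 0.15. The cytokinesis genes ANLN (2.76, SE 0.043) and ECT2 (1.61, SE 0.039) and BIRC5 (1.63, SE 0.036) were higher in PC3, MKI67 (-1.22, SE 0.083) and ASPM (-1.04, SE 0.055) in P493-6.

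In the BCL2 family, BCL2L1, which encodes BCL-XL, had 329, 312 and 315 CPM in PC3 and 22.5, 25.1 and 18.2 CPM in P493-6 (3.84, SE 0.086), while the death-promoting BCL2L11 (-2.26), BIK (-2.34) and PMAIP1 (-1.61) were higher in P493-6. MCL1 was near equal (0.11). Of 19 members 8 were on the P493-6 side and 4 on the PC3 side, against 15.1% and 20.9% of all listed genes.

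The PI3K genes of blood cells were P493-6 genes. PIK3CD had 15.7, 15.1 and 16.9 CPM in PC3 and 174, 169 and 173 CPM in P493-6 (-3.33, SE 0.056). PIK3CG, at 58.4, 56.6 and 54.6 CPM, and its regulators PIK3R6, at 29.3, 22.4 and 23.9 CPM, and PIK3R5, at 14.7, 17.3 and 16.5 CPM, were for P493-6 only. The broad forms PIK3CA (not called, 0.06) and PIK3CB (0.48) were close. Among effectors AKT2 was higher in P493-6 (-2.02, SE 0.055) and AKT1 in PC3 (0.46).

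Metabolic genes were listed for both lines with few exceptions. The respiratory chain had a median of -0.05, with 12 of 32 called higher in PC3, 14 in P493-6 and 6 not called, against 42.7% and 42.1% called higher of all genes. CYC1 (1.23) was beyond 2-fold in PC3, UQCRC2 (-1.14) and NDUFA9 (-1.10) in P493-6. Glycolysis had a median of -0.42, with 14 of 22 called higher in P493-6 and 5 in PC3, and 3 at 2-fold in each direction. Hexokinase HK1 had 377, 379 and 378 CPM in PC3 and 107, 103 and 107 CPM in P493-6 (1.86, SE 0.036), and PFKM was -1.92 (SE 0.047). The lactate dehydrogenases parted, LDHA not called (-0.04) and LDHB -1.18. Nucleotide and one-carbon synthesis had 22 of 28 called higher in P493-6 and 6 in PC3, and a median of -0.43. At 2-fold 6 of the 28 were higher in P493-6, near the 16.2% of all genes, and 2 in PC3, with PFAS (-1.79, SE 0.038) higher in P493-6 and the ribonucleotide reductase RRM2 (1.15, SE 0.034) higher in PC3.

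Stress and signalling lists were mixed. For NF-kB, 12 of 19 tested were called higher in P493-6 and 4 in PC3, against 42.1% and 42.7% of all genes, and 5 and 2 were so at 2-fold. REL was at 2.26, 2.73 and 3.34 CPM in PC3 and 60.1, 55.5 and 56.2 CPM in P493-6 (-3.93, SE 0.11) and RELA was higher in PC3 (0.83, SE 0.044). Interferon-stimulated genes gave 11 on the PC3 side and 8 on the P493-6 side of 37 listed, against 20.9% and 15.1% of all listed genes. IFITM3 had 48.4, 49.6 and 49.7 CPM in PC3 and 1.16, 1.39 and 1.02 CPM in P493-6 (4.54, SE 0.11), while IFI16 had 8.29, 9.09 and 9.03 and 334, 325 and 309 CPM (-5.02, SE 0.055), and the restriction factors MX2, at 164, 159 and 161 CPM, and BST2, at 120.0, 119 and 111 CPM, were for P493-6 only. OAS3 had 72.1, 76.0 and 75.4 CPM in PC3 and, from the second table, 0.291, 0.409 and 0.102 CPM in P493-6. Of 22 listed NRF2 targets, 9 were on the PC3 side and 3 on the P493-6 side, beside the same 20.9% and 15.1%. The ferritin heavy chain FTH1 had 3684 ± 58.0 CPM in PC3 and 954 ± 24.6 CPM in P493-6 (SD, n = 3), a log2 difference of 1.98 (SE 0.03), with FTL the other way (-0.82, SE 0.035). Thioredoxin reductase TXNRD1 was 1.91 (SE 0.031). AKR1B1 was listed for P493-6 only at 123, 131 and 126 CPM.

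Some genes were level. The 6 smallest differences among genes with a mean of at least 100 CPM in both lines belonged to RTCB, DDX42, ACP1, CCT4, RPL30 and KPNB1, of which KPNB1 was the largest at -0.0035. KPNB1, an importin, had 627, 620.3 and 638 CPM in PC3 and 674, 648 and 606 CPM in P493-6. CCT4, a chaperonin subunit, had 435, 429 and 435 and 450.1, 451 and 425 CPM. The libraries of the lines interleave for both.

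Position along the genome was read as the median log2 difference of the tested genes. By nuclear chromosome it was highest on 20 (0.52), 8 (0.45), 21 (0.43) and 14 (0.42) and lowest on 9 (-0.76), 13 (-0.51), 22 (-0.50), 16 (-0.44) and 4 (-0.42). On chromosome 9, 40.5% of 457 genes were at least 2-fold higher in P493-6, against 16.2% of all genes. On chromosome 14, 30.8% of 393 were higher in PC3, and on chromosome 8, 31.7% of 375, against 18.2%. In 5 Mb windows with at least 15 tested genes, 191 of 274 lay between -0.5 and 0.5, 44 at or above 0.5 and 39 at or below -0.5. The highest was chr10:70000001-75000000, where the median over 47 genes was 1.33 and 27 were at least 2-fold higher in PC3. With 1 library at a time set against the mean of the other line, this median was 1.10 to 1.37. From PPP3CB to VDAC2 (chr10:73436428-75231448), 16 neighbouring protein-coding genes, PLAU among them, were on the PC3 side without a break. The windows chr14:50000001-55000000, chr14:60000001-65000000 and chr14:65000001-70000000 had medians of 1.19, 1.23 and 1.28, and the run there held HIF1A and SGPP1. The lowest window was chr9:95000001-100000000, at -1.10 over 30 genes. DNA copy number was not measured here, and its part in these stretches was not tested.

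**Figure D4:**
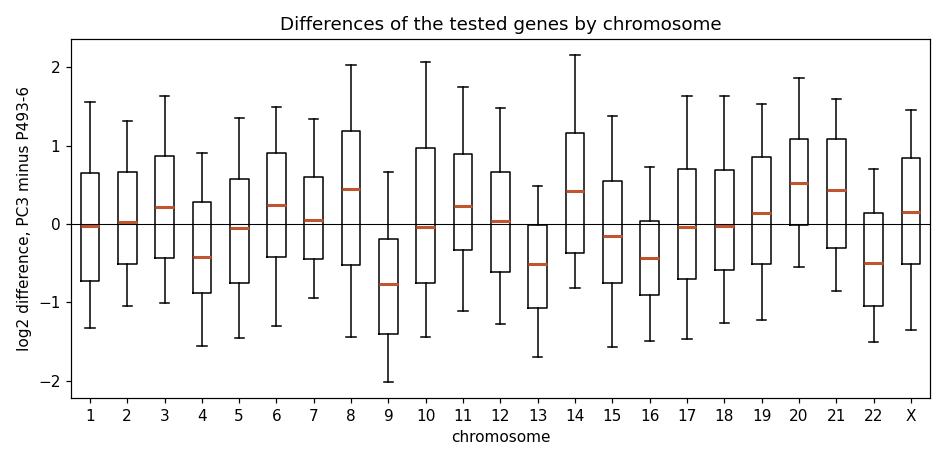
Log2 difference (PC3 minus P493-6) of the tested genes by chromosome. The line in each box is the median, the box spans the middle 50% of genes and the whiskers the 10th to 90th percentile. Chromosome 9 has the lowest median (-0.76) and chromosome 20 the highest (0.52).

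A stretch of chromosome 17 was unlisted in PC3. From DHX58 to ATP6V0A1 (421 kb) all 9 listed entries were in the P493-6 table only, 7 of them with a control median of at least 5 CPM. They include STAT factors that carry cytokine signals, STAT3 with 51.0, 48.9 and 51.6 CPM, STAT5B with 50.3, 45.0 and 44.6 CPM and STAT5A with 11.3, 10.6 and 9.72 CPM in P493-6 (STAT3 at chr17:42313324-42388568, minus strand). The acetyltransferase KAT2A had 59.8, 62.1 and 61.2 CPM and the endosomal GTPase RAB5C 65.1, 62.8 and 65.3 CPM. On the near side, NKIRAS2 was not called, at 34.5, 39.8 and 41.5 CPM in PC3 and 36.7, 36.5 and 36.7 CPM in P493-6. On the far side NAGLU was at 3.77, 3.12 and 2.81 CPM in PC3 and 10.3, 8.84 and 7.37 CPM in P493-6 (-1.19, SE 0.14), and COASY at 72.5, 76.8 and 69.1 and 64.6, 65.2 and 69.9 CPM (0.15, SE 0.054). This stretch was chosen after its values were seen.

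Motifs of the genes with the largest differences were read in the same promoter windows, for genes at least 4-fold apart or in 1 table only at 5 CPM or more. Of 15509 genes, 11161 matched the RefSeq table by symbol. Each share is set against that of tested genes under 2-fold or not called, and then against that of all promoters in the table, which include genes not listed for either line. GGAAGT was in 17.8% of 1443 PC3 promoters (Wilson 95% interval 15.9 to 19.9) and 27.2% of 699 P493-6 promoters (24.0 to 30.6), against 30.8% and 23.2%. The interferon regulatory core AANNGAAA was in 15.5% (13.7 to 17.4) for PC3 and 24.2% (21.1 to 27.5) for P493-6, against 15.8% and 23.2%. The octamer ATTTGCAT was in 1.80% (1.23 to 2.63) for PC3 and 2.86% (1.86 to 4.38) for P493-6, against 0.924% and 1.80%. The AP-1 site TGAGTCA was in 4.44% (3.49 to 5.62) and 2.58% (1.64 to 4.03), against 2.30% and 4.92%. The TEAD motif GGAATG was in 12.5% (10.9 to 14.3) and 9.44% (7.49 to 11.8), against 9.97% and 14.1%. CACGTG was in 7.28% (6.05 to 8.73) and 10.9% (8.78 to 13.4), against 11.0% and 7.43%, and ATTGG in 29.5% (27.2 to 31.9) and 34.8% (31.3 to 38.4), against 38.9% and 35.7%. For AP-1 and TEAD the PC3 share thus lay above that of genes under 2-fold and below that of all promoters. The AP-1 share in P493-6 did so too. For GGAAGT and CACGTG the P493-6 share lay below that of genes under 2-fold and above that of all promoters. In these cases the direction depends on which reference is used. The grainyhead site AACCGGTT was in 2 PC3 promoters and 0 P493-6 promoters, against 0.209% and 0.117%. All motifs were searched on both strands, and GGAAGT can overlap the interferon core. Intervals cover counting only, and genes are not replicates of a line.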

How the data were processed

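RNA of the 3 PC3 and 3 P493-6 control libraries was captured for exons with a stranded kit, per the labels' protocols. STAR, HTSeq, edgeR and hg38 are named in the submitters' processing notes, without versions. For the annotation and the strand setting of counting, no source used here gives details. The authors deposited CPM per gene and library, with no scaling between libraries: the P493-6 control columns of 2 tables hold the same values. CPM could be turned back into whole reads for 100% of values within 0.001 reads. Besides these values, the authors deposited log2 fold changes, p-values and likelihood ratio scores for treated against control, which were not used here.

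The 2 tables were joined on the gene identifier, scaled by TMM with edgeR (4.0.16), put on the log2(CPM + 1) scale and tested with limma (3.58.1, trend, robust) in R (4.3.3), with Benjamini-Hochberg adjustment over 11240 genes. The tables were made separately, so the contrast between lines has no library in common within 1 table, and line and table cannot be told apart. DESeq2 (1.42.0) and edgeR's quasi-likelihood test on recovered reads were alternatives. At 1 CPM a library holds 9.77 to 15.9 reads, so counting error is large for trace levels, and at high levels the number of libraries limits precision. Positions are on hg38 and promoters come from RefSeq on GRCh38.p14, with 11161 of 15509 genes matched by symbol. Protein identity between paralogs was not computed.

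Genes were named by rule: MYC, MAX, the 10 largest differences in each direction with no overlap and at least 5 CPM in the higher line, the 10 highest genes of 1 table only per line, up to 5 called and 5 line-restricted members per list, all paralog pairs, the 6 smallest differences at 100 CPM or more, and a few genes as line checks. Some genes that the rule names are not reported here. Other list members, the histone genes and the chromosome 17 stretch were named after their values were seen. The lists and members were chosen with earlier results of these data known. The scripts were tested on simulated data. Python 3.11.15, pandas 2.3.3, numpy 2.4.6, scipy 1.17.1 and matplotlib 3.10.9 were used.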

Additional observations from a re-analysis of the deposited data

How the results depend on the processing

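The number of called genes was 9536 with RLE scaling, 9526 with none, 9511 and 9572 with pseudocounts of 0.1 and 5, 8577 of 9688 genes at a mean of at least 5 CPM, 9745 of 11483 with genes of the second P493-6 table added, 9577 with edgeR on recovered reads and 9191 with DESeq2. Genes at least 2-fold higher ran from 1593 to 2203 in PC3 and from 1352 to 2054 in P493-6 over these settings, and limma's test against a 2-fold difference called 1619 and 1399. Leaving out each library gave 9283 to 9412 calls, with 2027 to 2046 and 1807 to 1854 at 2-fold. Leaving out PC3 replicate 1 and P493-6 replicate 2 together, chosen after seeing the data, gave 9104 calls. With replicate number as a block, 9495 genes were called, and 2041 and 1820 at 2-fold. Same-numbered libraries did not deviate together (r -0.062, -0.035 and -0.0032) and not every library correlated best with its own number. Deviations were taken from the mean of 3 libraries per line. Such small values therefore cannot show whether same-numbered libraries share more than a number.

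At a median over 1 CPM, 2207 genes were for PC3 only and 1487 for P493-6 only, since the limit is lower. GGAAGT was in 21.7% of PC3 promoters at 2-fold and 15.9% at 16-fold, CACGTG in 5.87% at 16-fold and ATTGG in 33.2% at 2-fold. AANNGAAA was in 18.7% of P493-6 promoters at 2-fold and 28.6% at 16-fold. The cause was not tested. Of named genes, ARPC1A lost its call without PC3 replicate 1 (log2 difference 0.11, adjusted p = 0.102 by limma), without P493-6 replicate 2 (0.12, 0.0772) and without both (0.077, 0.269), over a range of adjusted p from 0.00508 to 0.269. None of the named genes reversed. A median was taken for each list under each setting, and 43 of 464 such values moved beyond the spread over libraries. None changed sign with both values at or beyond that spread, and sign changes of smaller medians were not counted.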

Other observations

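Replication-dependent histone genes, most of which lie in a cluster on chromosome 6, were higher in P493-6 as a group. They were picked by current symbol after values were seen. Of 59 in a table, 47 were in both, of which 34 were called and at least 2-fold higher in P493-6, 1 in PC3, 9 were called under 2-fold and 3 were not called. Their median log2 difference was -1.47, against -0.01 over all genes. A further 11 were listed for P493-6 only, 7 of them with a control median of at least 5 CPM, and 1 for PC3 only. Of all tested genes, 16.2% were called and at least 2-fold higher in P493-6 and 18.2% in PC3.

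Single histone genes went far beyond that median. H3C8 had 731, 730.3 and 735 CPM, H2BC10 309, 319.6 and 337 CPM and H4C9 285, 296 and 289 CPM in P493-6 and none was listed for PC3. Next to HIST1H1B, the genes H3C11, at 533, 529 and 556 CPM, H4C13, at 234, 239 and 267 CPM, and H3C12, at 189.7, 193 and 211 CPM, were also for P493-6 only, while H2AC17 close by was in both at 48.9, 49.6 and 47.9 CPM in PC3 and 229, 229 and 239 CPM in P493-6. H2BC3 was the reverse, at 104, 90.5 and 86.9 CPM in PC3 and not listed for P493-6. Other members were level, such as H2AC6 at 155, 152 and 146 and 148, 158 and 164 CPM. Histone genes resemble each other and most of their transcripts lack a poly(A) tail, and how counting divided their reads was not tested.

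Mitochondrially encoded genes held 1.05 to 1.20% of reads in PC3 and 1.82 to 1.96% in P493-6, and the 26 tested genes of the mitochondrial chromosome had a median log2 difference of -0.59.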
